A study of Mus musculus with 7 samples.

Results

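Neutrophil granule and maturation genes are described here as a set of 34 mouse genes, chosen by name from the biology of neutrophil development, out of 42687 genes in the count table. All 34 were found by symbol, 1 Ensembl identifier each. They were measured in cells positive for CD24 and CD29 (the integrin beta 1 chain) that were sorted by flow cytometry from digested femurs of C57BL/6 mice, a population that the labels call skeletal stem cells of bone. From the age of 3 months the mice ate, over 4 weeks, either a low fat diet with 10% fat (LFD) or a high fat diet with 60% fat (HFD). LFD is represented by 4 libraries, here LFD 1 to LFD 4, and HFD by 3, here HFD 2 to HFD 4. The sources used here do not say whether a library came from 1 animal or a pool, so p-values measure the spread between these libraries, which may be technical in part.

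Neutrophils mature in the bone marrow in ordered steps, and each step fills a different kind of granule. Promyelocytes make the primary (azurophil) granules, which hold myeloperoxidase and serine proteases. Myelocytes and metamyelocytes, under the transcription factor C/EBP epsilon, make the secondary (specific) granules, which hold lactoferrin and cathelicidin. Band and segmented cells make gelatinase granules and the surface receptors for chemokines and formyl peptides with which the mature cell leaves the marrow and finds bacteria. Because transcription of each granule's contents is switched on and off in turn, their transcripts mark the stage of a cell.

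Library totals ran from 17391613 to 24681838 counts. Skeletal stroma genes were abundant. Their summed level over 13 genes was 23592 to 74721 CPM (counts scaled to the TMM-adjusted library total) for LFD. For HFD the sum was 70396 to 84985 CPM. The collagen genes Col2a1, Col1a1 and Col1a2 made up most of it. Col2a1, of cartilage, averaged 22454 ± 8855 CPM for LFD (SD, n = 4). Its HFD mean was 29737 ± 8844 CPM (SD, n = 3). Pdgfra and Prrx1, listed as well, averaged 30.8 and 17.7 CPM for LFD and 57.9 and 19.2 CPM for HFD. Which cells made the collagens was not tested, so the sum is no measure of skeletal stem cells. Red cell genes were abundant as well, at 92394 to 159073 CPM in LFD and 22322 to 107849 CPM in HFD over 10 genes. Xist, made from the inactive X chromosome, had 257 to 526 counts per library in LFD and 0 in HFD. The summed counts of 4 Y-linked genes were 1 to 5 in LFD and 2494 to 3405 in HFD. Diet and sex therefore cannot be told apart in any comparison of these libraries.

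The 34 neutrophil genes made up 0.125% of the counts in LFD 1, 0.205% in LFD 2, 0.250% in LFD 3 and 0.654% in LFD 4. In HFD 2, HFD 3 and HFD 4 they made up 1.24%, 1.52% and 1.95%. Each HFD library thus held more of them than any LFD library, and LFD 4 stood between the other LFD libraries and HFD. In bulk RNA, more neutrophil-lineage cells and more of these transcripts per cell cannot be told apart.

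Promoter sequence is shown for 6 members of the 3 stages, because the granule stages are switched on by different transcription factors. Each of the 6 holds a match to the letters marked below. The stage genes Camp, Ms4a3 and Fpr1 have no match in their promoters and are not shown, so the 6 do not stand for their stages. RefSeq promoters (GRCm38.p6) were at hand for 29 of the 34 members. Each stretch runs 5′ to 3′ on the gene's strand, starts 250 bases before the RefSeq start and stops before that start or the first annotated exon. Capitals mark TTNNGCAA, a core read by C/EBP factors, and GAGGAA (or its reverse complement TTCCTC), a core read by ETS factors such as PU.1.
Ngp (chr9:110419558-110419746, + strand): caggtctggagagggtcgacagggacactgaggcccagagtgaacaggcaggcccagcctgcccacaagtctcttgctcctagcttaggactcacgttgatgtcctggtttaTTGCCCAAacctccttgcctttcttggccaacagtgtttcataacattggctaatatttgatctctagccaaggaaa
Ltf (chr9:111019042-111019270, + strand): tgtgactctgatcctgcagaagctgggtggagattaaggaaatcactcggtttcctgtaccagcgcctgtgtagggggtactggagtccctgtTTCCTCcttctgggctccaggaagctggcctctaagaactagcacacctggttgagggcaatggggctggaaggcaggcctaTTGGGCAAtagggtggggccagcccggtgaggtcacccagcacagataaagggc
Mmp8 (chr9:7558179-7558428, + strand): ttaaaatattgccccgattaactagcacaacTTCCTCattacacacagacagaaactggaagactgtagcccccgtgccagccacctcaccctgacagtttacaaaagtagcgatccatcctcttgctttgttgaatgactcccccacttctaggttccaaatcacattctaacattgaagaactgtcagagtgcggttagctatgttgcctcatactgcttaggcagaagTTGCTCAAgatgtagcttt
Retnlg (chr16:48872358-48872607, + strand): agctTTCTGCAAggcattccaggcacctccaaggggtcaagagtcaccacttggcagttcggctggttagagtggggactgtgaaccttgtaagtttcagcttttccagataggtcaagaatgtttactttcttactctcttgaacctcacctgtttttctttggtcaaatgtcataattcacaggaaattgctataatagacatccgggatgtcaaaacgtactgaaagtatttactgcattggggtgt
Elane (chr10:79886062-79886246, + strand): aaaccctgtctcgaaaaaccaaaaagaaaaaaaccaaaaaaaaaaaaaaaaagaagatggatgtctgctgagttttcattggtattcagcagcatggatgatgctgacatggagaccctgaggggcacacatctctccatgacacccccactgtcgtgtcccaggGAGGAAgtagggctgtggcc
Prtn3 (chr10:79879417-79879613, + strand): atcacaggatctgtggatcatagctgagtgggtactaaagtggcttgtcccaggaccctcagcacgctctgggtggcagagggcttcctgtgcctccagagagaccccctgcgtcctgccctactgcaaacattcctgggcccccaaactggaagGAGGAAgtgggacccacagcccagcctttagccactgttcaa

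Both strands were searched over the 250 upstream bases, and the motifs do not overlap each other in the sequences shown. TTNNGCAA was present in 3 of 4 secondary granule genes (Lcn2, Ltf and Ngp), in 2 of the 4 mature genes with a promoter (Mmp8 and Retnlg) and in 0 of 5 primary granule genes, against 9.56% of 32851 promoters. In Ltf it starts 75 bases before the RefSeq start, in Mmp8 19, in Retnlg 246 and in Ngp 138, with another match in Ngp 11 bases before the start that lies in an annotated exon and is not printed. GAGGAA was present in 4 of 5 primary granule genes (Mpo, Elane, Prtn3 and Ctsg), in 2 of 4 secondary and 2 of 4 mature genes, against 23.3% of all promoters. It was not particular to the primary stage, with 3 of 3 receptor and integrin genes and 16 of all 29 members with a promoter. TTNNGCAA was present in 9 of the 29. The matches describe letters in this window, and binding was not measured.

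Primary granule genes were nearly absent from LFD 1 and LFD 2, present in LFD 3 and in LFD 4 within or above the range of the HFD libraries. Mpo, which encodes myeloperoxidase (ENSMUSG00000009350, GRCm38 chromosome 11, 87793581 to 87804413, the build of all positions here), measured 0.390, 0.0626, 47.7 and 183 CPM in LFD 1 to 4 and 72.4, 91.8 and 171 CPM in HFD 2 to 4. Elane, for neutrophil elastase (ENSMUSG00000020125, chromosome 10, 79886247 to 79888215), measured 0.351, 0.125, 12.1 and 138 CPM in LFD, against 162, 66.8 and 140.5 CPM in HFD. LFD 4 was above every HFD library for Mpo and within the HFD range for Elane, and LFD 1 and LFD 2 were below 0.4 CPM for both.

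Prtn3, for proteinase 3 (ENSMUSG00000057729), is the neighbour of Elane on chromosome 10, 3.1 kb away. Prtn3 measured 0, 0, 4.73 and 39.7 CPM in the LFD libraries and 35.2, 12.7 and 30.8 CPM in the HFD libraries. Ctsg, for cathepsin G, measured 0, 0, 3.61 and 7.61 CPM in LFD, against 1.22, 2.08 and 6.64 CPM in HFD, and for both genes LFD 4 was the highest of the 7 libraries. Ms4a3, a membrane protein of granulocyte and monocyte progenitors, measured 0, 0.877, 2.18 and 10.9 CPM in the LFD libraries and 14.9, 9.27 and 18.5 CPM in the HFD libraries. A value of 0 allows up to 0.117 CPM in LFD 1 and 0.188 CPM in LFD 2 (3 counts).

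The diets overlapped for 5 of 5 primary granule genes, and 0 of 5 had an unadjusted p under 0.05 in edgeR's quasi-likelihood test. Of the 14304 genes tested, 8.40% did not overlap with HFD higher, 5.18% had such a p with HFD higher, and 0.0350% were called at an adjusted p of 0.05. Log2 fold changes (HFD against LFD) were 2.02 ± 1.33 for Ms4a3 (SE), 1.71 ± 1.65 for Elane, 1.24 ± 1.70 for Prtn3, 0.95 ± 1.66 for Mpo and 0.24 ± 1.79 for Ctsg, with adjusted p from 0.712 to 0.981. The errors exceeded 1 log2 unit for each, so neither a rise nor its absence could be read from these genes. Without LFD 4 the same values were 3.82, 4.89, 4.08, 2.80 and 1.45, and the sign for Ctsg turned without LFD 1 (-0.18), LFD 2 (-0.18) or HFD 4 (-0.76).

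The 2 transcription factors among the members, Gfi1 and Cebpe, were scarce. Gfi1, a repressor needed for granulocytes to form, had 0, 0, 1.31 and 3.71 CPM in LFD, against 6.64, 4.93 and 0.0955 CPM in HFD. The value in HFD 4 rested on 2 counts, below all values other than the zeros of LFD 1 and LFD 2. Cebpe, for C/EBP epsilon, measured 0.312, 1.94, 1.93 and 5.98 CPM in the LFD libraries and 7.45, 7.39 and 17.9 CPM in the HFD libraries, without overlap (log2 fold change 2.10 ± 0.86, edgeR adjusted p = 0.641).

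Secondary granule genes were present in all 7 libraries and higher in each HFD library than in any LFD library. Ngp, for neutrophilic granule protein, a relative of cathelicidin (ENSMUSG00000032484, chromosome 9, 110419747 to 110423012), measured 348, 623, 607 and 1506 CPM in LFD 1 to 4 and 2119, 3904 and 4933 CPM in HFD 2 to 4. Ltf, for the iron-binding protein lactoferrin (ENSMUSG00000032496, chromosome 9, 111019271 to 111042767), measured 136, 291, 313 and 742 CPM in the LFD libraries and 1075, 2057 and 2369 CPM in the HFD libraries. In both genes LFD 4 was the highest LFD library and HFD 2 the lowest HFD library.

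Camp, for the antimicrobial peptide precursor cathelicidin (ENSMUSG00000038357, chromosome 9, 109847379 to 109849617), measured 81.3, 123, 194 and 379.7 CPM in LFD, against 582, 929 and 1253 CPM in HFD. Lcn2, for lipocalin 2, which binds bacterial siderophores and is also made by stromal cells, measured 48.6, 119, 113 and 266 CPM in the LFD libraries and 358, 557 and 717 CPM in the HFD libraries. The 4 genes kept nearly the same proportions: as a percent of Ngp, Ltf ran from 39.3 to 52.7, Camp from 19.7 to 32.0 and Lcn2 from 13.98 to 19.1 over the 7 libraries. Camp, Ngp and Ltf share a stretch of chromosome 9, with gaps of 570.1 kb and 596.3 kb between them.

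Means over the libraries were 771 ± 506 CPM in LFD (SD, n = 4) and 3652 ± 1424 CPM in HFD (SD, n = 3) for Ngp. The log2 fold changes of the 4 secondary granule genes lay between 1.99 ± 0.53 for Lcn2 and 2.31 ± 0.57 for Ltf. They had an unadjusted p under 0.05 in 4 of 4 cases, and edgeR's adjusted p from 0.288 to 0.338 did not pass the threshold of 0.05. DESeq2 called 4 of 4, beside 1.75% of all genes called higher in HFD (adjusted p = 0.00182 for Ngp and 0.0149 for Lcn2).

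**Figure D1:**
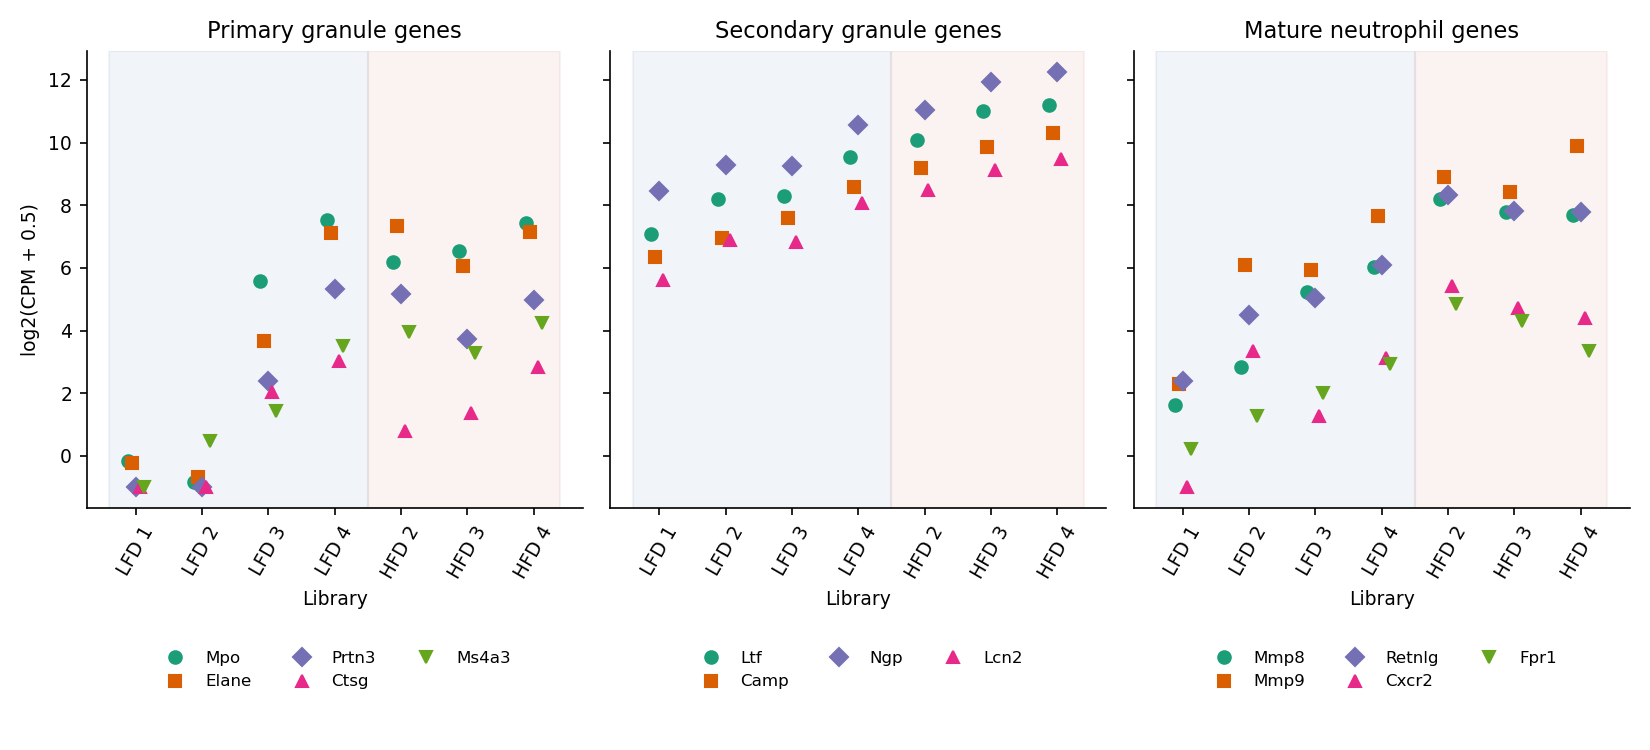
Levels of the 14 stage genes as log2(CPM + 0.5) in each library, with LFD libraries on a blue and HFD libraries on a red ground; each symbol is 1 gene. Primary granule genes are near 0 CPM in LFD 1 and LFD 2 and lie within or above the HFD range in LFD 4 (Mpo at 183 CPM), while the secondary granule genes do not overlap between the diets.

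Mature neutrophil genes had the largest log2 fold changes among the 3 stages, from 2.53 to 3.11, and the diets did not overlap for 5 of 5. That order depended on LFD 4. Without LFD 4 the mature genes ran from 2.945 (Cxcr2) to 3.955 (Mmp8) and the primary granule genes from 1.451 (Ctsg) to 4.889 (Elane). Whether the stages differ in their fold change was not tested. Mmp8, for neutrophil collagenase (ENSMUSG00000005800, chromosome 9, 7558456 to 7568485), measured 2.61, 6.64, 37.0 and 64.4 CPM in LFD, against 291, 220.1 and 205 CPM in HFD. Retnlg, for resistin-like gamma (ENSMUSG00000022651, chromosome 16, 48872621 to 48874496), measured 4.80, 22.2, 32.4 and 68.2 CPM in the LFD libraries and 321, 223 and 218 CPM in the HFD libraries. Both genes were highest in HFD 2, the HFD library with the lowest secondary granule levels.

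Cxcr2, the chemokine receptor with which neutrophils leave the marrow, measured 0, 9.71, 1.93 and 8.16 CPM in LFD, against 42.0, 25.7 and 20.7 CPM in HFD. Fpr1, a receptor for formylated bacterial peptides, measured 0.663, 1.94, 3.49 and 7.17 CPM in the LFD libraries and 28.5, 19.4 and 9.65 CPM in the HFD libraries. Mmp9, for gelatinase B (ENSMUSG00000017737, chromosome 2, 164940780 to 164955850), measured 4.45, 68.2, 60.4 and 202 CPM in LFD, against 478, 344 and 949.7 CPM in HFD. Of the 5 mature genes, Mmp9 was highest in HFD 4, and the other 4 were each highest in HFD 2 and lowest in HFD 4.

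Osteoclasts also make Mmp9. The summed level of 8 osteoclast genes was 131 to 230.1 CPM in LFD and 137 to 242 CPM in HFD, led by Acp5 (114 ± 47.3 and 86.2 ± 39.9 CPM) and Ctsk (44.5 ± 10.2 and 90.2 ± 21.7 CPM), with Oscar at 0 in all libraries. Ctsk was higher in each HFD library. Acp5 and Calcr (32.3 ± 7.88 and 21.3 ± 5.52 CPM) had lower means in HFD, with overlap. Ocstamp, Dcstamp, Atp6v0d2 and Tnfrsf11a stayed at or below 2.95 CPM in every library. The part of osteoclasts in the Mmp9 level was not tested. In edgeR, 4 of 5 mature genes had an unadjusted p under 0.05, and adjusted p ran from 0.288 (Retnlg, log2 fold change 2.99 ± 0.72) to 0.682 (Cxcr2, 2.58 ± 1.18). Mmp8 had 3.11 ± 0.94, Mmp9 2.82 ± 0.97 and Fpr1 2.53 ± 0.75. DESeq2 called Mmp8, Retnlg and Fpr1 (adjusted p = 0.0200, 0.00194 and 0.0422) and did not call Mmp9 (0.0556) or Cxcr2 (0.370).

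Within a library, the balance between the stages overlapped between the diets, and the share of primary granule transcripts was most uneven among the LFD libraries. The summed CPM of the primary granule genes was 0.121% of that of the secondary granule genes in LFD 1, 0.0922% in LFD 2, 5.74% in LFD 3 and 13.1% in LFD 4. It was 6.91%, 2.45% and 3.97% in HFD 2 to 4, all of them inside the LFD range. LFD 4 thus had the highest share of primary granule transcripts of any library, while its secondary granule sum (2894 CPM) was below that of each HFD library (4134 to 9272 CPM).

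The mature genes summed to 2.04%, 9.40%, 11.02% and 12.1% of the secondary granule genes in LFD 1 to 4, and to 28.1%, 11.2% and 15.1% in HFD 2 to 4. HFD 2 was highest and LFD 1 lowest, and HFD 3 lay between LFD 3 and LFD 4. HFD 2 also had the lowest red cell level of the 7 libraries (22322 CPM), whose part in this was not tested. As a mean of log2(CPM + 0.5), HFD minus LFD was 2.98 for the primary, 2.36 for the secondary and 3.34 for the mature stage, against SDs within LFD of 2.93, 0.95 and 1.70.

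Differences between the stages were taken on the same log2 scale. Primary minus secondary was -6.21 ± 2.14 in LFD (SD, n = 4) and -5.60 ± 0.64 in HFD (SD, n = 3), and mature minus secondary -4.52 ± 0.83 and -3.54 ± 0.87. Primary minus mature was -1.69 ± 1.86 and -2.05 ± 0.66. The diets overlapped for each of the 3, although the difference of the means for mature minus secondary (0.98) was larger than either SD. That difference rested largely on LFD 1 (-5.76) and HFD 2 (-2.56). LFD 2 to LFD 4 stood at -4.21, -4.10 and -4.01, and HFD 3 and HFD 4 at -3.87 and -4.20. The sign of the diet difference turned for primary minus secondary (0.62) without LFD 2 (-0.13) and for primary minus mature (-0.36) without LFD 4 (0.245). No test of these scores is given, since their genes were chosen with results of these data known.

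**Figure D2:**
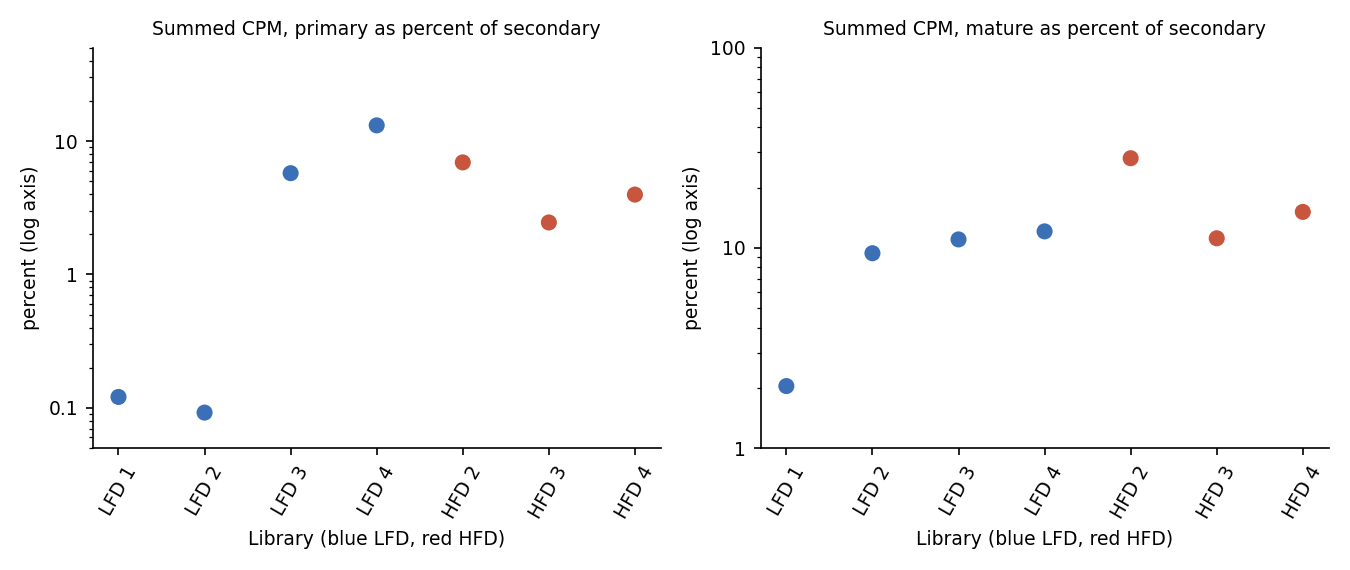
Summed CPM of the primary granule genes (left) and of the mature genes (right) as a percent of the summed CPM of the secondary granule genes, on log axes, 1 point per library. The primary share spans 0.0922% to 13.1% within LFD and the HFD libraries lie inside that span; the mature share is highest in HFD 2 at 28.1%.

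The 2 calprotectin genes were the most abundant members per exon length. S100a8 (ENSMUSG00000056054, chromosome 3, 90668978 to 90670035) and S100a9 (ENSMUSG00000056071, chromosome 3, 90692632 to 90695721) encode the paired calcium- and zinc-binding proteins of the neutrophil cytosol and lie 22.6 kb apart. S100a8 measured 192, 314, 509 and 1119 CPM in the LFD libraries and 1948, 2641 and 3704 CPM in the HFD libraries. S100a9 measured 142, 300.1, 445 and 982 CPM in LFD, against 1728, 2212 and 2862 CPM in HFD. Both were lowest in LFD 1 and highest in HFD 4, without overlap, with log2 fold changes of 2.37 ± 0.59 and 2.28 ± 0.60 (edgeR adjusted p = 0.308 and 0.330, DESeq2 0.00330 and 0.00748).

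On the TPM scale, which corrects for exon length, S100a9 stood at 12369 ± 984 in HFD, S100a8 at 11249 ± 1656, Ngp at 8334 ± 1908 and Camp at 3405 ± 658 (SD, n = 3). Ltf (1486 ± 319), Chil3 (1416 ± 299) and Retnlg (1296 ± 564) followed, and these 3 did not differ beyond their spread, nor did S100a9 from S100a8. In LFD the first 4 had the same order, at 2197 ± 1767, 1892 ± 1498, 1559.5 ± 1052 and 631 ± 438 TPM (SD, n = 4), and each gap to the next gene was smaller than the SD of the higher of the pair. Elane was the highest primary granule gene, at 95.7 ± 173 TPM in LFD and 377 ± 203 TPM in HFD. Gfi1 was the lowest member in both diets (0.963 ± 1.39 and 3.94 ± 3.72 TPM).

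The 10 other late granule and surface genes behaved alike in direction, with log2 fold changes from 1.77 (Itgb2l) to 2.47 (Trem3), and the diets did not overlap for 10 of 10. Mcemp1, a membrane protein named for its expression in mast cells, had the smallest unadjusted p of the 34 members. It measured 3.08, 5.70, 4.92 and 13.8 CPM in the LFD libraries and 33.9, 33.4 and 39.0 CPM in the HFD libraries (2.36 ± 0.49, edgeR adjusted p = 0.241, DESeq2 0.000745). Mast cell and basophil markers stayed at or below a summed 0.812 CPM in every library over 7 genes, led by Cpa3 and Fcer1a, each at 0 in all LFD libraries.

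Cd177, a surface protein of neutrophils, measured 41.8, 55.7, 43.6 and 150.4 CPM in LFD, against 231, 323 and 451 CPM in HFD. Pglyrp1, a granule protein that binds bacterial peptidoglycan, measured 5.38, 12.6, 12.6 and 34.4 CPM in the LFD libraries and 66.7, 72.4 and 111 CPM in the HFD libraries. Wfdc21, a small secreted protein with a WAP domain, measured 6.59, 13.5, 13.1 and 39.2 CPM in LFD, against 57.8, 88.3 and 106 CPM in HFD. In these 3 genes LFD 4 was above the other LFD libraries and below HFD 2. Fcnb (ficolin B), Chil3 (a chitinase-like lectin with a close relative, Chil4), Ly6g (the surface antigen used to sort neutrophils), Lrg1, Itgb2l and Trem3 had mean levels from 5.43 CPM (Trem3) to 207 CPM (Chil3) in LFD and from 30.1 to 827 CPM in HFD for the same 2 genes.

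Receptor genes and genes of the NADPH oxidase were also higher in each HFD library. Csf3r, the receptor for granulocyte colony-stimulating factor, was uneven within LFD, with 0, 13.7, 0 and 13.5 CPM, and measured 60.4, 43.8 and 34.5 CPM in HFD (2.77 ± 1.51, edgeR adjusted p = 0.693). Fpr1 has a neighbour 3.9 kb away, the formyl peptide receptor gene Fpr2, which measured 1.64, 0.940, 1.25 and 2.17 CPM in the LFD libraries and 6.26, 6.18 and 9.70 CPM in the HFD libraries, and had the smallest DESeq2 adjusted p of the members (0.000133, edgeR 0.288). Itgam, the CD11b chain of the integrin Mac-1, had a log2 fold change of 2.08 ± 0.67.

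Of the oxidase genes, Ncf4, for the p40phox subunit, measured 3.67, 9.46, 10.9 and 14.6 CPM in LFD, against 29.8, 27.2 and 42.9 CPM in HFD (1.79 ± 0.44). Cybb, for the membrane subunit gp91phox, rests on the X chromosome and had 2.39 ± 0.62, and Ncf1, for p47phox, 2.14 ± 0.65, with edgeR adjusted p from 0.296 to 0.434 over the 3 genes. Exons of Mpo, Prtn3, Gfi1, Fpr2, Itgam and Ncf1 overlap those of another annotated gene, so that some of their reads may have been dropped or shared.

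**Figure D3:**
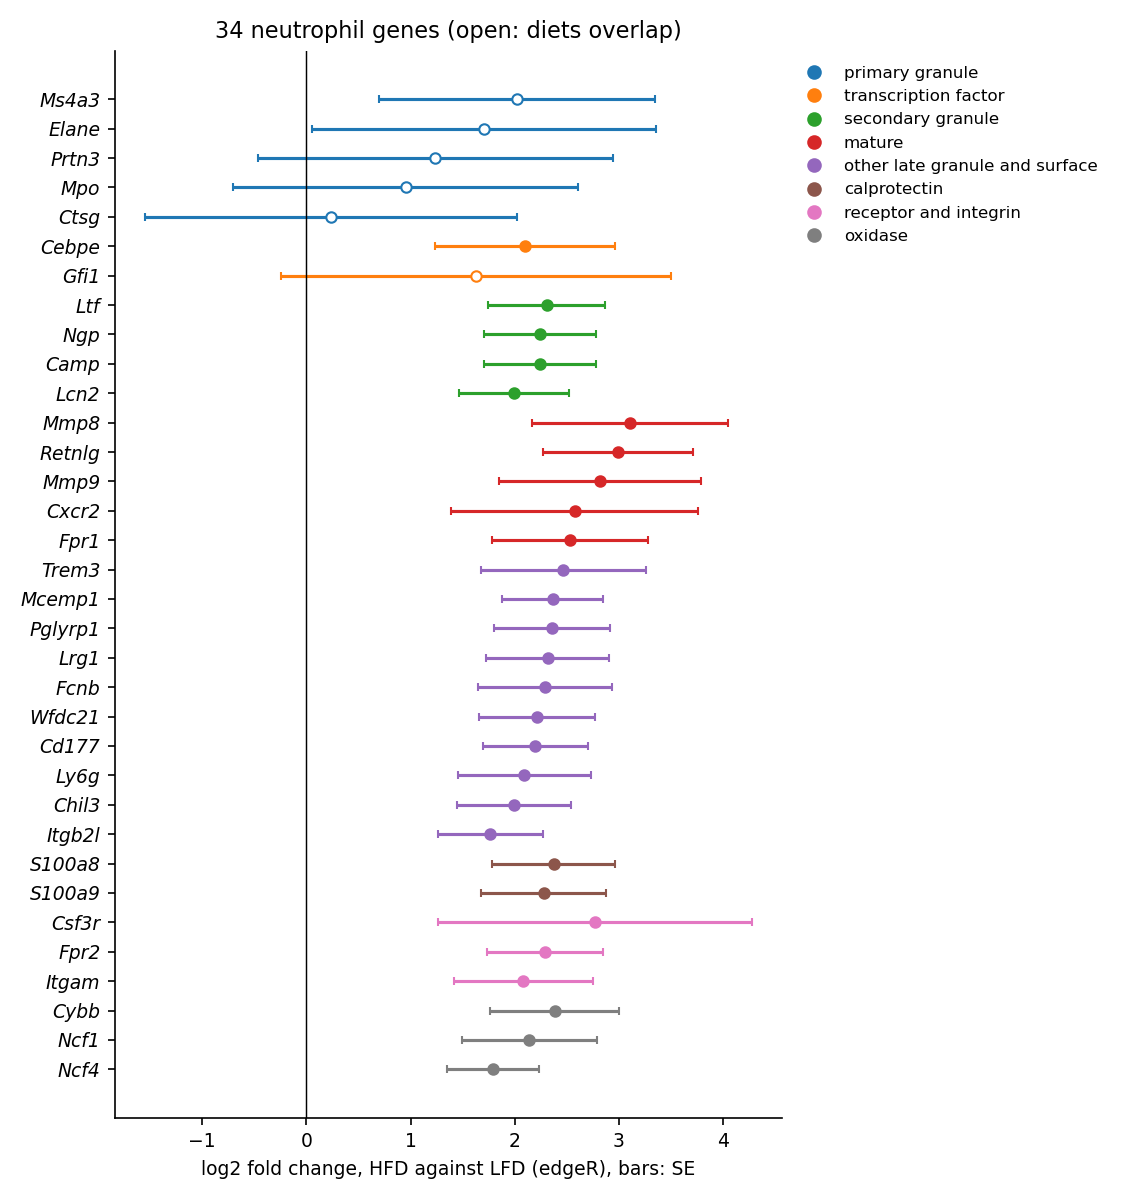
Log2 fold change, HFD against LFD, from edgeR for the 34 members, coloured by role, with bars of 1 SE; open symbols mark the 6 genes whose diets overlap. Gfi1, Ctsg, Prtn3, Mpo and Elane have the widest bars, and Mmp8 has the highest value, at 3.11.

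Over the whole set, 34 of 34 members had a positive log2 fold change, with a median of 2.24, beside a median of 0.02 over the 14304 genes tested, of which 51.5% were positive. EdgeR called 0 members at an adjusted p of 0.05 (lowest 0.241), where 0.0350% of all genes were called. An unadjusted p under 0.05 with a higher value in HFD was seen for 26 of 34 members and 5.18% of all genes. The diets did not overlap, with HFD higher, for 28 of 34 members and 8.40% of all genes. DESeq2 called 19 of 34 members, all higher in HFD, and 1.75% of all genes that it gave an adjusted p. Members share cells and libraries, so these counts are not 34 independent results.

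LFD 4 was the highest LFD library for 31 of 34 members, the exceptions being Itgb2l (LFD 3), Cxcr2 and Csf3r (LFD 2). Without it the count of members that edgeR called was 1, Fcnb (3.29, adjusted p = 0.0471). In HFD, 25 members were highest in HFD 4 and 8 in HFD 2, the latter being Elane, Prtn3, Gfi1, Mmp8, Retnlg, Cxcr2, Fpr1 and Csf3r. The remaining member, Itgb2l, was highest in HFD 3.

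Other genes of the neutrophil programme, taken from 4 lists of 67 genes, gave counts in the same direction for granule contents and surface genes. Of 15 tested genes of other granule contents 15 were higher in HFD (median 2.12), 9 had an unadjusted p under 0.05, edgeR called 0 and DESeq2 6. Hp, for haptoglobin, averaged 37.3 ± 27.9 CPM in LFD and 346 ± 40.8 CPM in HFD, Lyz2, for lysozyme, 345 ± 256 and 1732 ± 239.7 CPM, and Anxa1, for annexin A1, 306 ± 105 and 582 ± 90.4 CPM. Cyba, for the p22phox subunit that partners Cybb, had 1.60 ± 0.26 and Ifitm6, an interferon-induced transmembrane protein, 2.17 ± 0.37.

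Of 20 genes of neutrophil surface and signalling 19 were higher (median 2.55), 15 had an unadjusted p under 0.05, all higher, and DESeq2 called 8. C5ar1, the receptor for complement C5a, was the 1 gene that edgeR called, rising from 16.3 ± 5.14 to 93.4 ± 7.14 CPM (2.52 ± 0.26, adjusted p = 0.0304). It did not pass without any 1 library other than LFD 4 (adjusted p from 0.0834 to 0.279, and 0.0290 without LFD 4). The integrin chain Itgb2 (25.1 ± 15.1 and 106 ± 26.9 CPM) and the GTPase Rac2 (59.0 ± 33.1 and 182 ± 33.9 CPM) had higher values in each HFD library. Ptafr had 0 counts in LFD and was at least 77.6-fold higher in HFD against a floor of 3 counts over the LFD group (the list median is 2.55 with that bound as well). Cxcr4, the receptor that holds neutrophils in the marrow, was the 1 gene with a lower value (-1.002 ± 0.545, edgeR adjusted p = 0.693). The diets overlapped for it. Like the red cell sum, Cxcr4 was lowest in HFD 2 (5.53 CPM) and highest in LFD 3 (38.0 CPM). Which cells made Cxcr4 was not tested.

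Regulators of granulocyte fate were less uniform, with 11 of 14 higher and a median of 0.46. Spi1, for PU.1, measured 2.89, 2.63, 9.28 and 14.3 CPM in the LFD libraries and 32.7, 33.3 and 43.1 CPM in the HFD libraries (2.32 ± 0.60, edgeR adjusted p = 0.319, DESeq2 0.0149). Cebpb had 0.96 ± 0.35 and Cebpd 0.56 ± 0.25. The diets overlapped for Cebpd, as they did for Socs3 (865 ± 371 and 1069 ± 98.5 CPM), Id2 (208 ± 118 and 202 ± 45.4 CPM) and Klf6 (169 ± 42.6 and 224 ± 48.8 CPM). EdgeR called 0 of the 14, with 2 at an unadjusted p under 0.05, and DESeq2 1.

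Growth factors and chemokines that act on neutrophils could be tested for 9 of 13 genes, of which 6 were higher and 3 lower (median 1.83). Csf3, the ligand of Csf3r, had 0 counts in 6 of 7 libraries and 0.455 CPM in HFD 2, and Csf2 and Il1a had 0 counts in all 7. Cxcl12, the ligand of Cxcr4, measured 97.2 ± 90.4 and 1556 ± 434 CPM (4.00 ± 0.93), Il1rn, the interleukin 1 receptor antagonist, 3.50 ± 2.06 and 61.4 ± 40.2 CPM, and Csf1 34.5 ± 2.56 and 91.0 ± 28.0 CPM. Of the ligands of Cxcr2, Cxcl2 measured 0.0390, 0.125, 2.05 and 4.35 CPM in LFD, against 51.0, 28.9 and 15.6 CPM in HFD, and the other ligands listed had no higher value in HFD. Cxcl1 had a log2 fold change of -0.17, Cxcl3 -2.84 (1.17 ± 1.12 and 0.158 ± 0.143 CPM) and Ppbp -1.22 (2.09 ± 1.52 and 0.895 ± 0.842 CPM), each with overlap, and Cxcl5 had 7 counts in LFD 4 and 0 elsewhere. EdgeR called 0 of the 9, with 4 at an unadjusted p under 0.05, and DESeq2 4.

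Monocytes share several of these genes, such as Itgam, Cybb, Ncf1, Csf3r and S100a8, and their markers had higher values in the same libraries. Of 13 monocyte and macrophage genes 12 were higher in HFD (median 1.54), edgeR and DESeq2 called 0, and 2 had an unadjusted p under 0.05. Their summed level was 337 to 461 CPM in LFD and 590.0 to 651 CPM in HFD, led by F13a1 (298 ± 67.7 and 422 ± 34.4 CPM). Ccr2, which marks inflammatory monocytes, measured 0, 0, 2.61 and 11.4 CPM in the LFD libraries and 21.0, 13.5 and 22.4 CPM in the HFD libraries, with LFD 1 and LFD 2 at 0 as for Prtn3 and Ctsg. The macrophage genes C1qa, C1qb and C1qc stayed at or below 5.28 CPM, and the part of monocytes in the members' levels was not tested.

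Other blood lineages differed in direction. Eosinophil genes summed to 1.43 to 9.49 CPM in LFD and 11.2 to 49.4 CPM in HFD over 9 genes. They were led by Prg2 (1.01 ± 0.828 and 9.78 ± 8.64 CPM, with overlap) and Ear2 (0.790 ± 0.563 and 7.38 ± 5.72 CPM, without overlap). Of 4 tested, 3 were higher in HFD and 1, Epx, lower (-0.44, with overlap). Il5ra was at 0 in all libraries. B lineage genes summed to 10.9 to 69.7 CPM in LFD and 69.3 to 127 CPM in HFD, with Cd79a at 8.50 ± 6.49 and 14.2 ± 9.02 CPM and Ebf1 at 10.1 ± 1.94 and 17.6 ± 4.27 CPM. T and NK cell genes summed to at most 12.2 CPM, with Cd3d at or below 1.12 CPM and Nkg7 at 1.99 ± 3.38 and 9.06 ± 3.17 CPM.

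Red cell genes were lower in HFD in 10 of 10 cases (median -0.94, 0 at an unadjusted p under 0.05), with Hbb-bs at 55792 ± 9023 and 31744 ± 21350.2 CPM and Hba-a1 at 21310.3 ± 6233 and 10274 ± 5727 CPM. Genes listed as stem and progenitor markers summed to 135 to 219.7 CPM in LFD and 114 to 119 CPM in HFD. Cd34 was at 88.3 ± 38.6 and 40.3 ± 21.0 CPM, and Sox4 at 65.0 ± 10.6 CPM in LFD and at 52.2, 66.0 and 38.0 CPM in the HFD libraries. Cd34 and Sox4 made up most of that sum. Kit and Flt3 had 0 counts in LFD 1 to LFD 3, where Cd34 measured 145, 58.2 and 77.4 CPM. Which cells made Cd34 and Sox4 was not tested, so the sum is no measure of cells before the primary granule stage. By gene 4 of 8 tested were higher in HFD and 4 lower (median 0.17). Hlf (2.70) was higher without overlap and Kit (2.23), Cd48 (1.37) and Meis1 (0.66) higher with overlap. Megakaryocyte genes (16.7 to 32.4 and 7.48 to 22.5 CPM, with Gp9 at 15.3 ± 7.69 and 7.36 ± 5.27 CPM and Itga2b at 7.58 ± 3.87 and 5.21 ± 0.966 CPM) and endothelial genes (8.51 to 25.8 and 3.95 to 6.91 CPM, with Tek at 7.12 ± 6.14 and 2.91 ± 2.12 CPM and Pecam1 at 2.24 ± 2.67 and 1.43 ± 1.02 CPM) were low in both diets. The skeletal gene Col1a1 measured 13208 ± 8458 and 20791 ± 5995 CPM. The part of these cells in the members' levels was not tested.

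**Figure D4:**
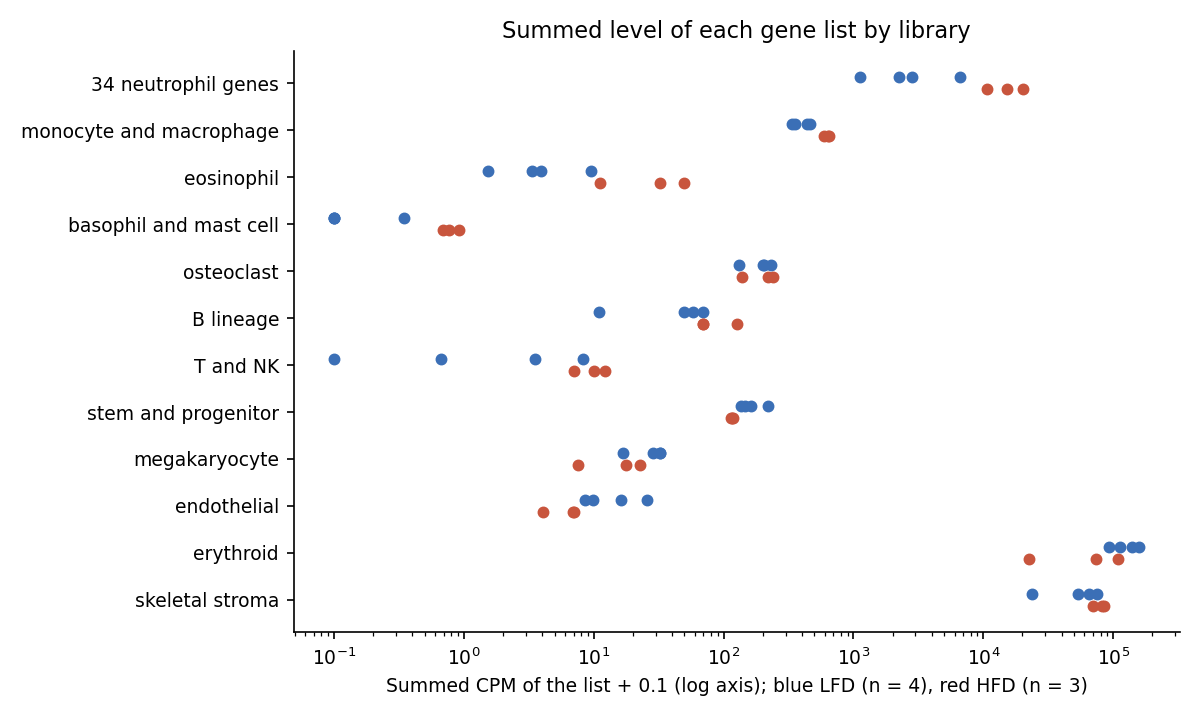
Summed CPM (plus 0.1, log axis) of the 34 neutrophil genes and of 11 marker lists, 1 point per library, LFD in blue and HFD in red. The neutrophil genes rank the HFD libraries (10720 to 20220 CPM) above the LFD libraries (1130 to 6617 CPM), the monocyte list does so by a smaller factor, and red cell genes overlap.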

How the data were processed

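Per the labels' protocols, RNA of the sorted cells was purified on columns, amplified with a low-input SMART-Seq kit, tagged with Nextera XT and read from both ends. The authors deposited whole-number counts per Ensembl gene, not normalized, with a column for each library. STAR 2.5.2b, HTSeq 0.11.2 and mm10 are named in the submitters' processing notes. Neither strandedness of counting nor the annotation is given in the sources used here, so genes with overlapping exons are uncertain. PCR without molecular identifiers means that counting limits cover counting error only. All 42687 rows entered the totals.

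The diets were compared with edgeR 4.0.16 (quasi-likelihood test, TMM, filterByExpr, robust fitting, diet as the sole term, Benjamini-Hochberg over all 14304 genes tested). CPM are counts scaled to the TMM-adjusted library total. The filter asks for about 0.479 CPM in 3 libraries of either diet. All 34 members passed, 28 of them also within LFD alone. TPM used exon lengths of GENCODE M21 (GRCm38). Promoters came from RefSeq (GRCm38.p6). The procedure was tested on simulated data with less spread between libraries than here. The common biological coefficient of variation (spread between libraries beyond counting error) of these data was 0.628. That test therefore does not show how the procedure performs on data this variable.

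Alternatives were RLE normalization, 2 other filters, each library left out, the replicate block, DESeq2 1.42.0 and limma 3.58.1 (voom with quality weights), and for stage levels another pseudocount and summed CPM. The members, lists, tests and rule for named genes were chosen with earlier results of these data known. The rule gave every value of the 14 stage genes, the 2 transcription factors, the 2 calprotectin genes and the 6 other members with the smallest p, and 3 to 6 genes of each pathway list by level and by p. It named 2 genes of each cell type list by level. Some genes that the rule named are not reported here. Markers named beyond these were chosen after their values were seen.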

Additional observations from a re-analysis of the deposited data

Results flagged for a closer look

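Of the 34 members' levels in the 4 LFD libraries, 5 had a single library set apart from the rest by a gap whose share of the whole range exceeded the critical value of Dixon's test for 4 samples. In each the library was LFD 4, the highest: Elane (gap 0.913), Fcnb (0.885), Prtn3 (0.881), Cd177 (0.872) and Trem3 (0.83). The log2 difference of mature minus secondary genes was also set apart (0.887), there with LFD 1 as the lowest library (-5.76, the others -4.21 to -4.01). Chance sets about 1 in 20 such groups apart if the values are normally distributed. The members' CPM were not log-transformed and were skewed within LFD, so the rate for them may be higher. Members that share cells are not separate cases.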

How the results depend on the processing

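Of 442 combinations of a member and an alternative, 419 kept the direction of the log2 fold change and its side of the threshold, 20 passed the threshold (19 of them with DESeq2) and 3 turned sign, each of these for Ctsg (-0.179, -0.176 and -0.76, in a range up to 1.451). Members higher in HFD numbered 33 or 34 and those at an unadjusted p under 0.05 from 24 to 28 under every alternative run. The count of members called was 0 except with DESeq2 (19) and over the fits with 1 library left out (0 to 1). All genes called numbered 5, against 8 with no filter, 0 with the stricter filter, 359 with DESeq2, 28 with limma-voom and 1 to 6 with 1 library left out. Pathway genes called numbered 1, against 0 with the stricter filter, 19 with DESeq2 and 0 to 2 with 1 library left out. Of the stage differences, primary minus secondary turned to -0.182 with a pseudocount of 2 (-0.126 to 1.39 with 1 library left out), and primary minus mature to 0.54 with summed CPM (-1.21 to 0.245). The cause of these changes was not tested. With the replicate block over numbers 2 to 4, edgeR called 0 genes, 0 members and 0 pathway genes, with 28 members at an unadjusted p under 0.05. The shared numbers did not pair the libraries (correlation of deviations -0.095, 0.026 and -0.062, and of the 6 libraries HFD 3 alone correlated best with its own number). Counts of the primary granule genes and Gfi1 were few or 0 in LFD 1 and LFD 2, which limits the precision of their values there.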
